A study of Mus musculus and Bos taurus with 6 samples.

Results

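The miR-30 family was described over both arms of its hairpins in small RNA libraries of lactating mammary gland. The members were the rows with a mouse (mmu-) or bovine (bta-) name for the 5p arms of miR-30a, b, c, d and e and for the 3p arms of miR-30a, c-1, c-2, d and e. The mouse list gave all 10 members among 1750 rows of mature miRNA in each library, 5 of them 5p and 5 of them 3p arms. The bovine list gave 7 of the 10 among 1539 rows under those prefixes, with 2 of the 3p arms. The other 3 (miR-30a-3p, miR-30c-2-3p and miR-30d-3p) stood under the human prefix hsa- with the mature sequence of the mouse arm. They fell outside the rule and were used here as the bovine counterparts. miR-30b-3p was not chosen as a member, and its values are given only where the 2 arms of miR-30b were compared.

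The study sequenced 6 libraries. The 2 mouse libraries held small RNA of mammary gland of primiparous FVB/N mice on day 12 of lactation, 1 mouse to a library. According to the paper's methods these were abdominal glands with the lymph node removed. The 2 AGO2 libraries held RNA recovered with an antibody against Argonaute 2 from lysates of glands of the same strain and day, and the sources used here do not say which mouse or gland gave which AGO2 library. The paper's methods name 2 mice as the source of glands, and its results name 2 animals for the AGO2 libraries. Whether these were the same mice is not stated, so libraries may share a mouse. The tests below treated all libraries as unpaired. The 2 bovine libraries were each a pool of udder biopsies of 2 multiparous Holstein cows at mid-lactation on a diet called low forage, extracted with another RNA kit. Species, parity, diet, RNA kit, pooling, biopsy against dissected gland and the list of miRNA counted changed together and cannot be told apart. No library made with a control antibody was analysed here.

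A miRNA gene is transcribed as a hairpin, and the mature miRNA is cut from its stem as a duplex of a 5p and a 3p strand. One strand, the guide, is kept by an Argonaute protein and leads it to messenger RNA that pair with the seed, the bases at the start of the guide, while the passenger strand is discarded and degraded. In the miR-30 family the 5p strand is the usual guide, and all 5p strands share 1 seed, so that they are thought to repress overlapping sets of targets. Below, guide and passenger name the 5p and 3p arms by this convention only, also where the 3p arm had more reads. The family is known for roles in fat cell and epithelial differentiation, and forced expression of miR-30b in the mouse mammary gland is known to disturb lactation.

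The mature sequences below come from RefSeq on GRCm38.p6, where 7 of the 10 members were matched, and show how close the members are and where they part. Capitals mark the seed, bases 2 to 8 counted from the 5′ end.
mmu-miR-30a-5p: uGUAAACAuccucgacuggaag
mmu-miR-30e-5p: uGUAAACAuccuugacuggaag
mmu-miR-30c-5p: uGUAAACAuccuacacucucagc
mmu-miR-30a-3p: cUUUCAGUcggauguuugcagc
mmu-miR-30e-3p: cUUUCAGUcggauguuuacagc
mmu-miR-30c-1-3p: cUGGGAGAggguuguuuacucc
mmu-miR-30c-2-3p: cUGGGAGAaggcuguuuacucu
All 5 of the 5p arms carry the seed GUAAACA, and the 3p arms carry either UUUCAGU (miR-30a, d and e) or UGGGAGA (both miR-30c copies). Every 5p arm began with U and every 3p arm with C. miR-30a-5p differs from miR-30e-5p by C13U alone and from miR-30d-5p by 1 base. miR-30a-3p differs from miR-30e-3p by G18A alone. The number of mismatches allowed when reads were assigned to these near-identical arms is not given in the sources used here, so that some reads may have been counted for a neighbouring member, and this was not tested.

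The 6 hairpins of the mouse family lie in 3 pairs. Mir30a (chr1:23272269-23272339, plus strand) and Mir30c-2 (chr1:23291701-23291784, plus strand) are 19362 bases apart on chromosome 1. The annotation puts Mir30c-2 in an exon of the long noncoding RNA Gm27028 and Mir30a in no other gene. Mir30c-1 (chr4:120769534-120769622, minus strand) and Mir30e (chr4:120772606-120772697, minus strand) are 2984 bases apart within introns of Nfyc, which encodes a subunit of the CCAAT-binding factor NF-Y, on its strand. Mir30b and Mir30d lie on the minus strand of chromosome 15. The hairpins of miR-30a and of the 2 miR-30c copies follow, with both mature arms in capitals, as those of the most abundant member and of the stem whose arm ratio changed most between species.
Mir30a: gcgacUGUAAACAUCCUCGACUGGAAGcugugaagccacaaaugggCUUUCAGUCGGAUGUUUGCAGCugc
Mir30c-1: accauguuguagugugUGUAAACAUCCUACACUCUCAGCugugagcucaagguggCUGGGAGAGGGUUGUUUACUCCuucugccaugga
Mir30c-2: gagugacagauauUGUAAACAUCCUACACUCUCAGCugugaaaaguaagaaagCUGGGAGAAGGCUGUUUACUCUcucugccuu
The 2 miR-30c hairpins give the same 5p arm, so that a miR-30c-5p read cannot be assigned to either, while their 3p arms differ by G9A, U12C and C22U and were counted apart.

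Libraries held 3909166 to 10613807 counts, with the 2 AGO2 libraries (3909166 and 5041406) the smallest. A level of 3 counts, taken as the detection floor, was 0.283 to 0.767 RPM (reads per 1000000 counts of the library). Epithelial markers (miR-200c-3p, miR-141-3p and miR-205-5p) were present in every library and together made 44464 to 103153 RPM. Of these, miR-200c-3p was lower in AGO2 (4567 and 1788 RPM) than in mouse (17888 and 5127 RPM), and miR-141-3p was higher. The smooth muscle and fibroblast markers miR-143-3p and miR-199a-5p summed to 49365 and 64329 RPM in mouse and 29972 and 30493 RPM in AGO2. Nearly all of this was miR-143-3p. miR-199a-5p went the other way, with 227 and 338 RPM in mouse and 610 and 891 RPM in AGO2. In bovine these markers made 69766 and 55110 RPM with miR-145-5p added. That marker (6434 and 6064 RPM in bovine) had no value here in mouse or AGO2. Summed blood and leukocyte markers were 13673 and 7965 RPM in mouse, against 32948 and 16945 RPM in AGO2, all 5 markers above 0. Of these, miR-142-3p overlapped between mouse (399 and 986 RPM) and AGO2 (470 and 640 RPM). In bovine 4 of the blood and leukocyte markers, without miR-451a, made 1730 and 2416 RPM. Most of this was miR-150-5p, with 1347 and 2007 RPM in bovine against 250 and 260 RPM in mouse. The mouse sum was mostly miR-451a (11706 and 5397 RPM), so the mouse and bovine sums are not alike. The paper counts miR-451a as expressed in bovine too. miR-144-3p, miR-142-3p and miR-223-3p were lower in bovine than in mouse. The 3 skeletal muscle markers summed to 163 and 213 RPM in mouse, nearly all of it miR-1a-3p and with miR-206-3p at 0 in 1 library, and to 27.9 and 70.2 RPM in AGO2. miR-1a-3p was lower in AGO2 than in mouse, while miR-133a-3p was higher, with 3.33 and 5.60 RPM in mouse and 16.4 and 35.3 RPM in AGO2. In bovine 2 of the skeletal muscle markers, without miR-1a-3p, made 13.5 and 13.7 RPM. The marker miR-126-3p of endothelium had a value under that name in bovine only. The paper places it among the most expressed miRNA of both species. A marker left out of a group had no value under the name used, which does not show that it was absent there. The part of these cell types in the differences below was not tested, and in whole tissue fewer cells of a type and less RNA per cell cannot be told apart.

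The 5p arms made most of the family in every library, and miR-30a-5p made most of the 5p arms. Summed 5p reads were 25685 and 34563 RPM in mouse, 39524 and 68233 RPM in AGO2, and 21757 and 19429 RPM in bovine libraries. Summed 3p reads were 1831 and 1678 RPM in mouse, 1917 and 910 RPM in AGO2, and 2715 and 2797 RPM in bovine. There were thus 14.0 and 20.6 reads of the 5p arms per read of the 3p arms in mouse, 20.6 and 74.9 in AGO2, and 8.01 and 6.95 in bovine.

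Added up over every miRNA with the same bases 2 to 8, the GUAAACA seed ranked 13 and 9 in mouse, 5 and 4 in AGO2, and 15 and 17 in bovine libraries among 636 to 902 seeds with counts. The only other miRNA of that seed in the mouse list, miR-384-5p, had 4 and 8 counts in mouse and 0 in both AGO2 libraries. In the bovine list it was bta-miR-30f, with 10.6 and 15.1 RPM. The family thus supplied nearly all reads of this seed in both species.

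miR-30a-5p, the most abundant member, reached 14913 and 22702 RPM in mouse, 23407 and 47842 RPM in AGO2, and 15144 and 13547 RPM in bovine libraries. It ranked 19 and 10 among all rows in mouse, 9 and 5 in AGO2, and 22 and 23 in bovine. The AGO2 values were above both mouse values, as for 31.1% of the 299 miRNA tested, though AGO2 replicate 1 exceeded mouse replicate 2 only slightly. Its share of the summed 5p reads was 61.9% ± 5.39 in mouse, 64.7% ± 7.70 in AGO2 and 69.7% ± 0.0814 in bovine (mean ± SD, n = 2 libraries each).

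miR-30d-5p and miR-30e-5p followed. miR-30d-5p was at 5120 and 4433 RPM in mouse, 8824 and 8878 RPM in AGO2, and 4243 and 3896 RPM in bovine. miR-30e-5p was at 4863 and 6463 RPM in mouse, 5366 and 7213 RPM in AGO2, and 2222 and 1820 RPM in bovine. In mouse the order of these 2 switched between the libraries, so they did not differ beyond their spread, whereas miR-30d-5p was above miR-30e-5p in both AGO2 and both bovine libraries.

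miR-30b-5p and miR-30c-5p were the rare 5p arms. miR-30b-5p was at 293 and 413 RPM in mouse, 1040 and 2063 RPM in AGO2, and 101 and 112 RPM in bovine. miR-30c-5p was at 496 and 552 RPM in mouse, 887 and 2238 RPM in AGO2, and 46.7 and 54.6 RPM in bovine. For both, the AGO2 values were above both mouse values, as for 31.1% of the 299 miRNA tested. The bovine values were below both mouse values, as for 32.9% of the 158 matched miRNA tested. miR-30c-5p was above miR-30b-5p in mouse and below it in bovine, while in AGO2 their order switched between libraries.

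**Figure D1:**
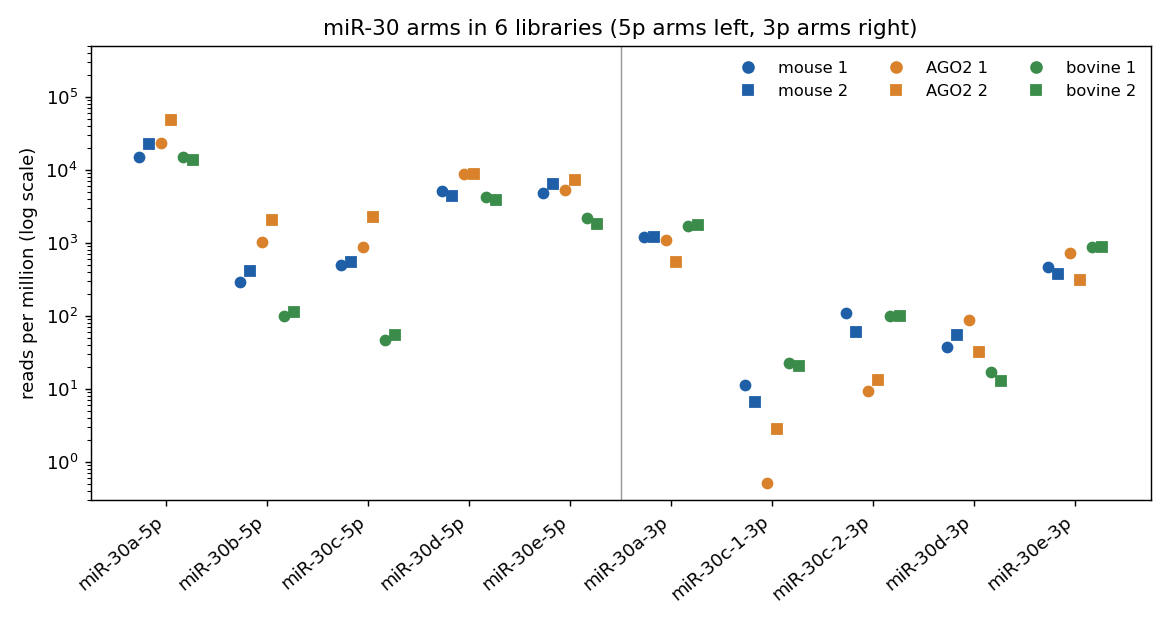
Level of each of the 10 miR-30 arms in RPM (log axis), with 1 point per library, circles for replicate 1 and squares for replicate 2, and 5p arms to the left of the line. miR-30a-5p lies highest in all 6 libraries, and the bovine points of miR-30b-5p and miR-30c-5p lie at 46.7 to 112 RPM, below all mouse and AGO2 points of these arms. Of the 158 matched miRNA tested, 32.9% had both bovine libraries below both mouse libraries.

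Among the passenger arms, miR-30a-3p was the most abundant in every library, with 1209 and 1187 RPM in mouse, 1092 and 555 RPM in AGO2, and 1693 and 1785 RPM in bovine. miR-30e-3p came next, with 462 and 370.1 RPM in mouse, 728 and 307 RPM in AGO2, and 882 and 880.1 RPM in bovine. The 2 AGO2 libraries stood apart in both arms, with replicate 1 above replicate 2.

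The remaining 3p arms were near or below 100 RPM. miR-30c-2-3p was at 111 and 59.3 RPM in mouse, 9.21 and 13.1 RPM in AGO2, and 100.4 and 98.6 RPM in bovine. miR-30c-1-3p was at 11.4 and 6.55 RPM in mouse, at 0.512 and 2.78 RPM (2 and 14 counts) in AGO2, and at 22.3 and 20.3 RPM in bovine. Both miR-30c passenger arms were lower in each AGO2 library than in each mouse library, as were 42.1% of the 299 miRNA tested. Those 299 include miR-30c-2-3p but not miR-30c-1-3p, whose counts were too low. miR-30d-3p was at 37.9 and 55.2 RPM in mouse, 86.5 and 32.1 RPM in AGO2, and 17.2 and 12.8 RPM in bovine, with AGO2 on both sides of mouse.

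**Figure D2:**
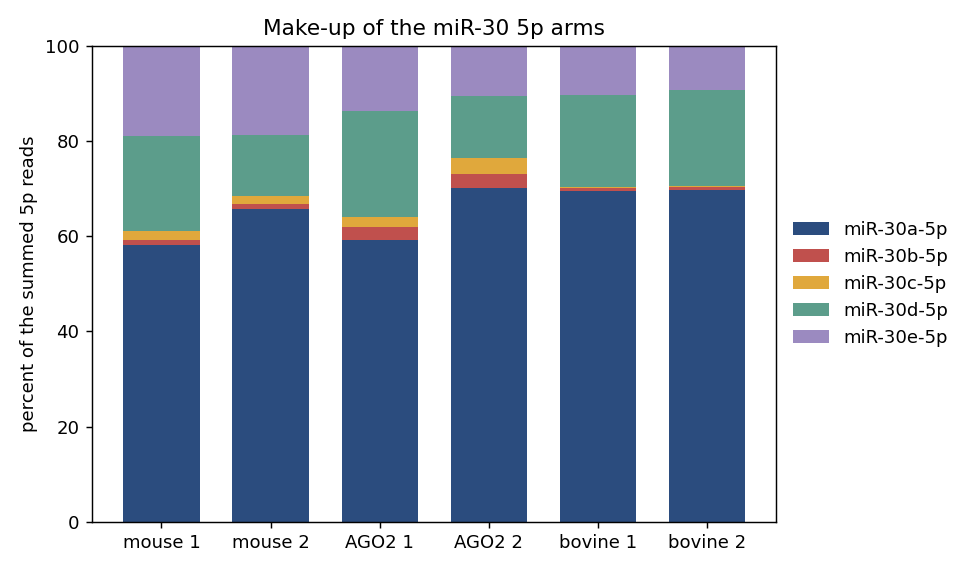
Share of each 5p arm in the summed 5p reads of the family (percent, stacked to 100), 1 bar per library. miR-30a-5p makes 58.1 to 70.1% in the 6 libraries, and miR-30b-5p and miR-30c-5p each make 0.215 to 0.578% in bovine, against 1.14 to 3.28% in mouse and AGO2 libraries.

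The first comparison asked which arms were over- or under-represented in the RNA bound to AGO2 relative to whole gland RNA. On the scale of the test, log2 fold changes after TMM scaling, the 5p arms of miR-30b and miR-30c rose. miR-30b-5p was 4.93-fold higher in AGO2 (log2 fold change 2.30, SE 0.64, adjusted p = 0.00976). miR-30c-5p was 3.37-fold higher (1.75, SE 0.64, adjusted p = 0.0473). The passenger arm miR-30c-2-3p was called lower (log2 fold change -2.75, SE 0.90, adjusted p = 0.0274), but it passed the filter on low counts only through the mouse libraries, where it was high, so that this call carries little weight. Without that filter its adjusted p was 0.140. These p-values came from edgeR's quasi-likelihood test over 299 miRNA with Benjamini-Hochberg adjustment. An exact permutation test of a single miRNA cannot reach the threshold with 2 libraries against 2.

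Of the 5 guide arms 2 were called higher and 0 lower, where 15.4% of all 299 miRNA were called higher and 12.4% lower. The other guide arms did not pass: miR-30a-5p had a log2 fold change of 1.09 (SE 0.42, adjusted p = 0.0578), miR-30d-5p of 1.05 (SE 0.46, adjusted p = 0.0866) and miR-30e-5p of 0.31 (SE 0.48, adjusted p = 0.611), all in edgeR. In RPM, both AGO2 libraries were above both mouse libraries for 4 of the 5 guide arms, all but miR-30e-5p, as for 31.1% of the 299. The median log2 fold change of the 5 guide arms was 1.09, beside -0.12 over all tested.

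Of the 5 passenger arms 4 were tested and 1, miR-30c-2-3p, was called lower, where 12.4% of all were. miR-30c-1-3p, with at most 106 counts, did not pass the study's filter on the highest count of a miRNA over the 4 libraries. miR-30a-3p (log2 fold change -0.41, 95% interval -1.65 to 0.84), miR-30d-3p (0.47, -1.23 to 2.16) and miR-30e-3p (0.45, -0.89 to 1.78) did not pass, with intervals that leave room for changes of over 2-fold. In RPM, miR-30a-3p and miR-30c-2-3p were lower in both AGO2 than in both mouse libraries, as were 42.1% of the 299.

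These calls rested on few libraries. miR-30b-5p lost its call without mouse replicate 1 (adjusted p = 0.0819) and without AGO2 replicate 2 (0.154), and over the 9 alternatives its log2 fold change lay between 1.65 and 3.07. miR-30c-5p lost its call in 5 of 9, among them without mouse replicate 1 (adjusted p = 0.190), mouse replicate 2 (0.0832) or AGO2 replicate 2 (0.493), with values from 0.86 to 2.62. miR-30c-2-3p lost it in 4 of 9, among them without mouse replicate 1 (0.418), mouse replicate 2 (0.0964) or AGO2 replicate 1 (0.0766), with values from -3.10 to -2.15. miR-30a-5p gained a call in 4 of 9, among them without mouse replicate 2 (adjusted p = 0.0250) or AGO2 replicate 1 (0.0109). The miR-30d-5p arm gained one in 1 of 9, with DESeq2, the package the study used (log2 fold change 1.15, adjusted p = 0.0330), where 69 of the 299 were called higher. In its own run of DESeq2, in an earlier version, the study listed miR-30b-5p, miR-30c-5p and miR-30d-5p as significantly enriched in AGO2. All but the DESeq2 value are edgeR values, with a lone library assumed to vary like the other group.

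The first base of each miRNA was set beside these values, since AGO proteins are known to hold a 5′ U or A most readily. Over the 138 tested miRNA that begin with U, as the 5 guide arms do, the median log2 fold change was -0.54. Over the 65 that begin with C, as the 3p arms do, it was 0.77. The guide arms, from 0.31 to 2.30, thus lay above the median of the miRNA with their first base, and miR-30a-3p, miR-30c-2-3p, miR-30d-3p and miR-30e-3p below that of theirs, as a description with no test.

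**Figure D3:**
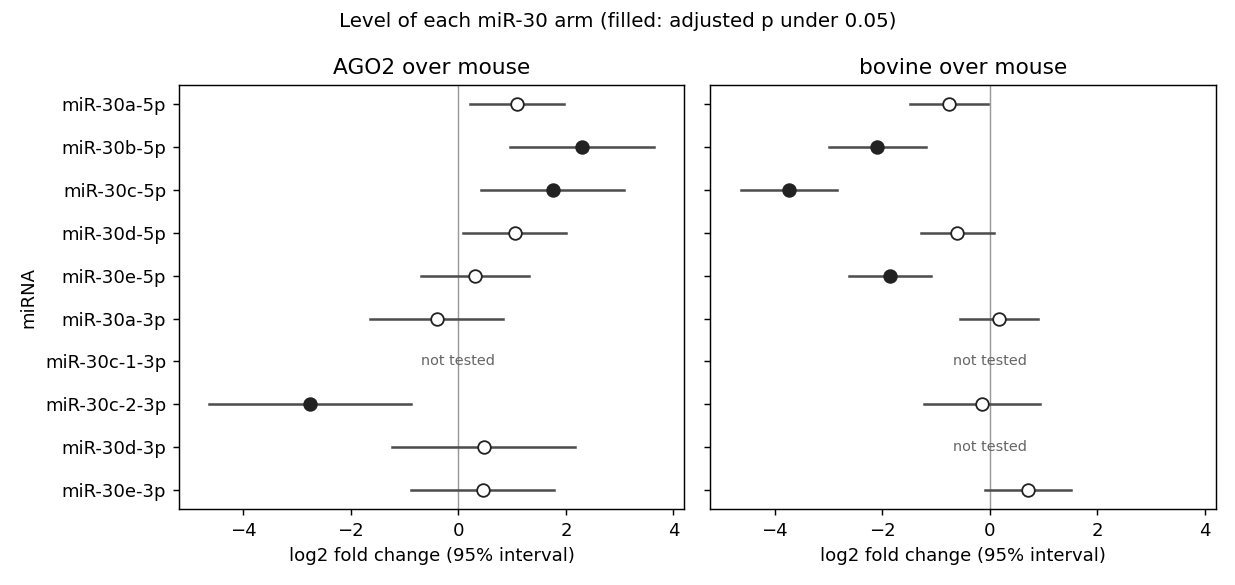
Log2 fold change of each miR-30 arm with its 95% interval in edgeR, AGO2 over mouse on the left and bovine over mouse on the right (filled points passed an adjusted p of 0.05). Both panels use the same 2 mouse libraries. On the left all 5 guide arms lie above 0 and miR-30b-5p highest at 2.30, and on the right all 5 lie below 0 and miR-30c-5p lowest at -3.73.

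The second comparison set bovine beside mouse gland, to see how far the 2 miRNomes are alike. In all, 3 guide arms were lower in bovine, and none of the 3 passenger arms tested passed. miR-30c-5p was 13.3-fold lower (log2 fold change -3.73, SE 0.37, adjusted p = 6.43e-04), miR-30b-5p 4.26-fold lower (-2.09, SE 0.37, adjusted p = 0.00442) and miR-30e-5p 3.62-fold lower (-1.86, SE 0.32, adjusted p = 0.00377). These are edgeR values adjusted over the 158 miRNA matched by name and tested. miR-30c-5p reached the 100 RPM of the filter only in mouse, and without that filter it was called too. Its mouse row holds the reads of both miR-30c hairpins. The bovine row leaves out bta-miR-30f (10.6 and 15.1 RPM), listed on the hairpin that carries miR-30c-2-3p. The level with bta-miR-30f added was not tested, so this fold change does not compare like with like. The mature sequences were the same in both species over the bases compared, with 2 more bases at the 3′ end of the bovine entries of miR-30a-5p, miR-30d-5p and miR-30e-5p.

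Thus 3 of the 5 guide arms were called lower and 0 higher, where 27.8% of all 158 were called lower and 27.2% higher. miR-30a-5p (log2 fold change -0.76, SE 0.30, adjusted p = 0.0720) and miR-30d-5p (-0.60, SE 0.28, adjusted p = 0.117) did not pass in edgeR. In RPM, both bovine libraries were below both mouse libraries for 4 of the 5 guide arms, as for 32.9% of the 158, with miR-30a-5p the exception: bovine replicate 1 lay above mouse replicate 1. The median of the 5 was -1.86, beside 0.06 over all tested.

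Of the passenger arms 3 reached 100 RPM in a library and were tested, and 0 were called in edgeR. At an unadjusted p under 0.05 there were also 0 of these 3, against 98 of all 158. DESeq2 called 0 of the 3, against 48 of all higher and 48 lower, with adjusted p-values of 0.0935 for miR-30e-3p, 0.703 for miR-30a-3p and 0.854 for miR-30c-2-3p. Log2 fold changes were 0.17 for miR-30a-3p (95% interval -0.56 to 0.91), 0.72 for miR-30e-3p (-0.08 to 1.51) and -0.14 for miR-30c-2-3p (-1.23 to 0.94). miR-30e-3p was called higher in 3 of 8 alternatives: on library totals without TMM (1.08, adjusted p = 0.0303), without mouse replicate 1 (0.89, 0.00897) and without mouse replicate 2 (0.56, 0.0493), all in edgeR. In RPM, without TMM, miR-30a-3p and miR-30e-3p were higher in both bovine than in both mouse libraries, as were 48.7% of the 158. miR-30c-1-3p and miR-30d-3p were not tested.

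miR-30c-5p kept its call in all 9 alternatives, none of which added bta-miR-30f, with log2 fold changes from -3.95 to -3.37. miR-30e-5p lost its call without bovine replicate 1 (adjusted p = 0.0540) or bovine replicate 2 (0.0956), and miR-30b-5p without bovine replicate 1 (0.0549), all in edgeR. miR-30a-5p gained a call in 2 of 9, without the filter (adjusted p = 0.0481) and without mouse replicate 1 (0.00267). miR-30d-5p gained one in 2 of 9, without mouse replicate 1 (0.0318) and without mouse replicate 2 (0.00513). All 5 guide arms were lower in bovine under every alternative run, library totals without TMM included, which moved the median of all miRNA from 0.06 to 0.43.

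The reads of each 5p arm per read of the 3p arm of the same hairpin compare the strands within a library, so that library size drops out. In mouse total RNA the 5p arm led in all 5 stems. miR-30d had the most one-sided arms, with 135 and 80.4 reads of the 5p per read of the 3p arm. miR-30a had 12.3 and 19.1, miR-30e 10.5 and 17.5, miR-30b 7.52 and 18.9, and miR-30c, with both 3p arms summed, 4.06 and 8.38. In 4 of the 5 stems the ratio was lower in mouse replicate 1 than in replicate 2, and miR-30d was the other way round.

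In the AGO2 libraries the ratios of miR-30b and miR-30c were far higher. miR-30b-5p had 4066 counts against 0 of miR-30b-3p in AGO2 replicate 1, a ratio of at least 1355 by the floor of 3 counts in that library, and 452 in AGO2 replicate 2. miR-30c had 91.2 and 141 reads of the 5p per read of the 3p arms. The passenger share of miR-30c was 19.8% (exact 95% interval 18.7 to 20.8) and 10.7% (9.84 to 11.5) in mouse, and 1.08% (0.769 to 1.49) and 0.704% (0.559 to 0.876) in AGO2. These Clopper-Pearson intervals cover counting error only, since PCR reads without molecular identifiers are not independent molecules.

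The other stems differed less. miR-30a had 21.4 and 86.2 in AGO2, both above mouse. The miR-30d stem had 102 and 276, of which the first lay between the mouse values. The miR-30e stem had 7.37 and 23.5, on both sides of the mouse values. In 4 of the 5 stems the ratio was higher in AGO2 replicate 2 than in replicate 1, with miR-30b the exception.

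The change of the arm ratio was tested as the interaction of arm and group in edgeR over 183 stems. Of the 5 stems 0 were called higher and 0 lower, where 0.0% of all 183 were called higher and 1.09% lower. The log2 change was 6.64 for miR-30b (SE 1.70, adjusted p = 0.0804), 4.28 for miR-30c (SE 0.87, adjusted p = 0.0614), 1.48 for miR-30a (SE 0.86, adjusted p = 0.305), 0.69 for miR-30d and -0.04 for miR-30e. The unadjusted p was under 0.05 for miR-30b and miR-30c, 2 of the 5 stems, and for 51 of all 183. With limma on log2 ratios 1 stem was called higher and 1 lower, and 0 of the 5 miR-30 stems, with adjusted p-values from 0.0832 to 0.974.

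Both AGO2 ratios were above both mouse ratios for miR-30a, miR-30b and miR-30c, 3 of the 5 stems, as for 20.8% of all 183, and below them for 0 of the 5, as for 43.7% of all. The median log2 change of the 5 stems was 1.48, beside -1.23 over all 183. Among the 117 stems that had more 5p than 3p reads in mouse, as all the miR-30 stems had, the median was -1.60, and the change was above 0 in 35. The miR-30b and miR-30c stems ranked 8 and 15 of 183 by this change.

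Leaving out an AGO2 library changed these calls, for all stems as for the family. Without AGO2 replicate 1, miR-30b (log2 change 5.24, adjusted p = 5.65e-07), miR-30c (4.60, 2.35e-06) and miR-30a (2.49, 0.00661) were called higher, among 27 of the 183 stems higher and 54 lower. Without AGO2 replicate 2, miR-30b (12.30, 6.36e-09) and miR-30c (3.97, 2.31e-04) were, among 28 higher and 47 lower. In these edgeR fits the lone AGO2 library is assumed to vary like the mouse libraries, and the fit without replicate 2 sets miR-30b against 0 counts, so that its log2 change depends on the prior count and is no bound.

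**Figure D4:**
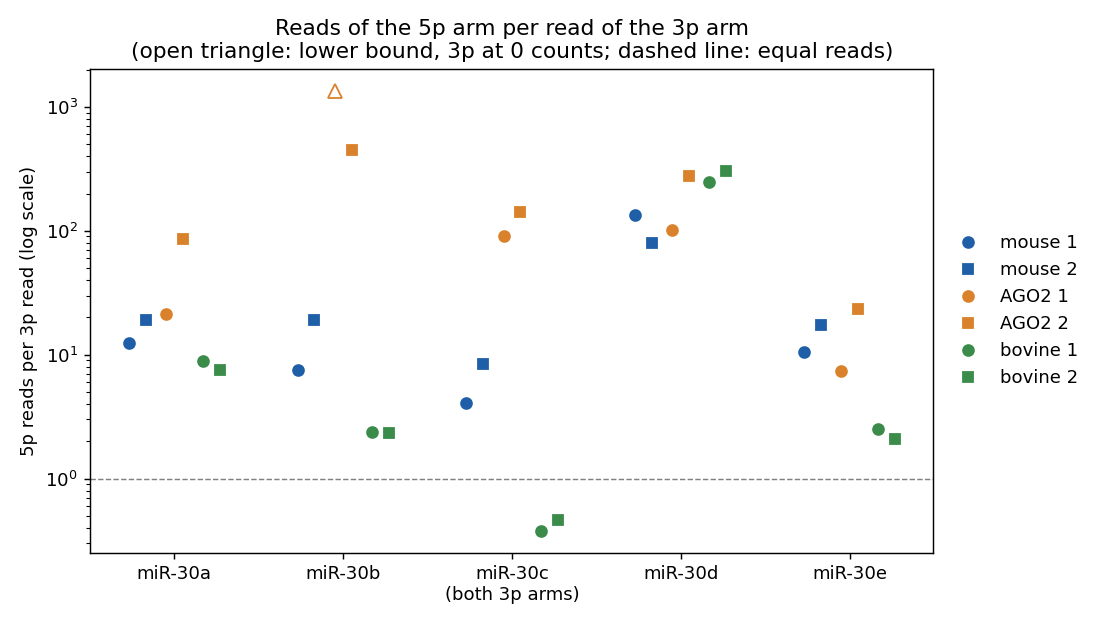
Reads of the 5p arm per read of the 3p arm of the same stem (log axis), 1 point per library, with the open triangle at the lower bound for AGO2 replicate 1 of miR-30b, where the 3p arm had 0 counts. The 2 bovine points of miR-30c, 0.380 and 0.460, are the only ones below the dashed line of equal reads.

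In bovine the 5p reads per 3p read were below both mouse values in both libraries for 4 of the 5 stems, as for 28.2% of the 117 stems tested. miR-30a had 8.94 and 7.59 reads of the 5p per read of the 3p arm, miR-30b 2.37 and 2.34, miR-30e 2.52 and 2.07, and miR-30c is given next. The miR-30d stem had a higher ratio in both bovine than in both mouse libraries, with 246 and 304, as had 33.3% of the 117.

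For miR-30c the order of the arms was the reverse of that in mouse. With both 3p arms summed there were 0.380 and 0.460 reads of the 5p per read of the 3p arms. The share of the 3p arms was 72.4% (exact 95% interval 70.2 to 74.6) and 68.5% (66.3 to 70.6). miR-30c was 1 of 117 stems, and the only one, with more 5p reads in both mouse and more 3p reads in both bovine libraries, and 3 stems (miR-142, miR-450b and miR-1306) went the other way.

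The bovine list assigns these arms to 2 hairpins. miR-30c-2-3p is listed on bta-mir-30f, whose 5p arm, bta-miR-30f, differs from bta-miR-30c by U9C and 1 more base at the 3′ end, right after the seed in capitals. The bovine sequences are those of the deposited list, with U for T.
bta-miR-30c: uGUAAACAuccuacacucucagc
bta-miR-30f: uGUAAACAcccuacacucucagcu
hsa-miR-30c-2-3p: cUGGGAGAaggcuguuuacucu
Taken hairpin by hairpin, bta-mir-30c had more 5p than 3p reads, 2.09 and 2.70 per read of miR-30c-1-3p, and bta-mir-30f had fewer, 0.106 and 0.153 per read of miR-30c-2-3p. With miR-30f-5p added to miR-30c-5p, a choice made after the values were seen, the summed ratio was 0.467 and 0.586. The 3p arms still outnumbered the 5p arms.

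The same interaction test over 117 stems called 3 of the 5 stems lower in bovine, where 12.8% of all were called lower, and 1 higher, where 15.4% of all were. The log2 change of the 5p reads per 3p read was -3.80 for miR-30c (SE 0.58, adjusted p = 3.13e-04), -2.57 for miR-30e (SE 0.48, adjusted p = 0.00177) and -2.34 for miR-30b (SE 0.60, adjusted p = 0.0117). It was 1.39 for miR-30d (SE 0.48, adjusted p = 0.0493), the stem that went up, and -0.90 for miR-30a (SE 0.43, adjusted p = 0.129), which did not pass in edgeR. The median of the 5 was -2.34, beside 0.07 over all 117.

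miR-30c and miR-30e kept their calls in all 7 alternatives of this test, with log2 changes from -4.32 to -3.28 and from -2.94 to -2.21. miR-30b lost its call without bovine replicate 1 (adjusted p = 0.302), without bovine replicate 2 (0.293) and with limma (0.0507). miR-30d lost its call in 4 of 7, without mouse replicate 2 (0.0602), bovine replicate 1 (0.279) or bovine replicate 2 (0.389) and with limma (0.106). The miR-30a stem gained a call in 1 of 7, without mouse replicate 1 (log2 change -1.22, adjusted p = 0.00347).

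The 2 comparisons share the mouse libraries, so the values of each guide arm are given side by side as a description. miR-30b-5p had 2.30 in AGO2 over mouse and -2.09 in bovine over mouse, and miR-30c-5p had 1.75 and -3.73. miR-30e-5p, the guide arm with the smallest change in AGO2 at 0.31, had -1.86 in bovine.

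The summed 5p arms were last set beside the 159 miRNA outside the family that were matched in both species and reached 100 RPM in a library. The distance used was the Euclidean distance of centred log2 RPM over the 6 libraries, with a median of 3.45 over the 159. The closest were miR-141-3p (0.588), miR-27a-3p (0.607), miR-29b-3p (0.612), miR-340-3p (0.649) and miR-199a-5p (0.685). miR-199a-5p, listed above with the smooth muscle and fibroblast markers, was at 227 and 338 RPM in mouse, 610 and 891 RPM in AGO2, and 290 and 255 RPM in bovine. Of the same marker list, miR-143-3p was lower in AGO2 (29362 and 29602 RPM) than in mouse (49139 and 63991 RPM). miR-141-3p, an epithelial marker of the miR-200 family, was at 27622 and 38711 RPM in mouse, 49621 and 100647 RPM in AGO2, and 23331 and 16586 RPM in bovine. Like the summed miR-30 guide arms, miR-141-3p was highest in AGO2 replicate 2 and lowest in bovine replicate 2. It was picked by its distance over these same 6 libraries, so that a like order is largely given by the choice. The other epithelial markers did not share this order: miR-200c-3p was lowest in AGO2 replicate 2 (1788 RPM) and highest in bovine replicate 2 (30029 RPM), and miR-205-5p was highest in bovine (4096 and 4427 RPM).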

How the data were processed

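Small RNA of 6 libraries was sequenced. According to the study's methods, poly-A stretches were trimmed by the authors, and reads between 17 and 28 nt long were then assigned to mature miRNA by the miRDeep2 quantifier, on precursors of miRBase version 20 and those predicted with a score above 0. Genome builds named in the submitters' notes were GRCm38 (mouse) and UMD3.1 (bovine). The deposited values are raw counts, and the column beside them is the same count times 1 constant per library and was not used. Lists of predicted precursors, which hold no miR-30 row, were not used.

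RPM is the count over the sum of all rows of the library. Mouse and bovine rows were matched by name and arm, taking bta- names first (229 of 359) and names of other species otherwise (130). Levels were tested in edgeR 4.0.16 (R 4.3.3) with TMM scaling, glmQLFit and glmQLFTest, for the 299 miRNA over the study's count minimum (AGO2 and mouse libraries) or the 158 with at least 100 RPM in 1 library (bovine and mouse libraries). Arm ratios were tested as the arm by group interaction, with each library a block, for stems with at least 10 counts of each arm summed over the 4 libraries. The 3p arms of both miR-30c copies were summed. The p-values were adjusted by Benjamini-Hochberg over all features tested, at 0.05. With 2 libraries in a group they rest on a spread estimated over all miRNA. The scripts were tested on simulated counts. Alternatives were DESeq2 1.42.0, its size factors in edgeR, library totals, other filters, bta- names alone, limma 3.58.1 with 0.5 added to each count, other sums of the miR-30c arms and each library left out in turn. The genes named were all members, miR-30b-3p, miRNA of the same seed and the 5 most like the summed 5p arms. Members, lists and tests were chosen with earlier results of these data known. Mature and hairpin sequences are RefSeq's on GRCm38.p6, and 8 of 8 mature entries equalled the deposited ones. Positions follow the mouse annotation of that build.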

Additional observations from a re-analysis of the deposited data

How the results depend on the processing

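Of the 227 values of single arms and stems under the alternatives, 181 kept their direction and their side of the threshold, 21 lost a call, 19 gained one and 6 turned direction, each of these 6 an arm or stem that was not called. In bovine over mouse, miR-30c-2-3p was 0.23 on library totals without TMM and -0.53 to 0.38 with a library left out. In AGO2 over mouse, the range with a library left out was -0.0093 to 0.99 for miR-30d-3p, and -0.030 to 1.41 and -0.88 to 0.79 for the arm ratios of miR-30d and miR-30e. The cause was not tested.

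Counts over all miRNA moved more. In AGO2 over mouse (46 higher, 37 lower), 29 were higher without the filter, and 28 to 65 higher and 22 to 41 lower with a library left out, the fewest without mouse replicate 1. In bovine over mouse (43 higher, 44 lower), 90 were higher and 97 lower without the filter, where more miRNA were tested, and 26 to 58 lower with a library left out, the fewest without bovine replicate 2. For arm ratios in AGO2 over mouse (0 higher, 2 lower), limma gave 1 higher and 1 lower, 100 counts of both arms in every library gave 1 lower, and leaving out a library gave 0 to 28 higher and 0 to 54 lower, the most without AGO2 replicate 2 and AGO2 replicate 1. For arm ratios in bovine over mouse (18 higher, 15 lower), limma gave 10 higher, and leaving out a library gave 6 to 34 higher and 6 to 31 lower, the fewest without bovine replicate 2 and the most without mouse replicate 1.

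No paired analysis was possible because the mouse or gland behind each AGO2 library is not given in the sources used here, and replicate numbers here only name libraries. With 2 libraries in a group and 3909166 counts in the smallest, arms with few counts, such as miR-30c-1-3p with 2 and 14 counts in AGO2, limit what the ratios can show.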
